A study of Bubalus bubalis with 12 samples.

Results

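The 9 genes described here encode enzymes of serine synthesis and of one-carbon metabolism, together with ATF4 and ASNS of the amino acid response. They are LOC102410803 (PSAT1 in RefSeq), PHGDH and PSPH for the synthesis of serine, SHMT1 and SHMT2 for its exchange with glycine, MTHFD1 and MTHFD2 for the folate-bound carbon, and ATF4 and ASNS. They were the rows of the deposited table with these names, 9 of 34037 genes, and each name had 1 row. LOC102410803 was chosen by its diet difference, since the study called it differentially expressed in these same animals, and the other 8 genes were added as its pathway partners.

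Ruminal wall was collected at slaughter from 12 Italian Mediterranean dairy buffaloes (Bubalus bubalis) with a mean age of 8.2 ± 0.6 years. The 6 control animals were fed a total mixed ration (TMR), and the 6 treated animals a TMR in which green feed, ryegrass, made up 30% of the diet. Feeding went on for 60 days after an adaptation of 14 days. Both diets were formulated for equal energy and nitrogen, and every library of total RNA came from a single animal. Per the paper, only the control diet held soybean meal, calcium carbonate and added vitamins. The amounts of alfalfa hay, corn silage, corn meal and concentrate also differed. So did the ratio of forage to concentrates and the content of fat and acid detergent fiber.

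Cells make serine from an intermediate of glycolysis. PHGDH oxidises 3-phosphoglycerate, PSAT1 moves an amino group from glutamate to the product, and PSPH removes the phosphate. Serine then gives a carbon unit to tetrahydrofolate through SHMT1 in the cytosol or SHMT2 in mitochondria, and MTHFD1 and MTHFD2 interconvert the folate-bound forms that feed the synthesis of nucleotides and methionine. ATF4 is a transcription factor of the amino acid response that is controlled mainly at translation, and it is known to activate genes for amino acid synthesis, ASNS and the serine enzymes among them.

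The values are FPKM, fragments scaled to the length of the gene and to the counted fragments of the animal, so that levels can also be set side by side between genes. An error in the length used for a gene would be shared by all animals, and tests between genes would not show it. Between 10531541 and 12948372 fragments were counted per animal, and all 9 genes reached the 42 reads in at least 1 animal that were asked for a gene to be tested, as did 12639 genes in all. Any pair of the libraries differed far beyond counting noise (chi-square per gene 17.1 to 122 in 66 comparisons). The labelled tissue was checked on markers of squamous epithelium, which summed to between 3423 and 6136 FPKM per animal, against 16.9 to 51.6 FPKM for the markers of smooth muscle. KRT5, a keratin of the basal layer, had 1436 ± 495 FPKM (SD, n = 6) in the control group and 1550.4 ± 672 FPKM (SD, n = 6) in the treated group. In the diet comparison by limma, an adjusted p-value below 0.05 was reached by 0 of 12639 genes (0%), the smallest being 0.9997. Unadjusted, 156 genes (1.23%) passed this threshold, 99 of them (0.783%) with a higher and 57 (0.451%) with a lower level in the treated animals. With voom on the reads, these numbers were 0 and 139. The groups did not overlap in 7 genes (0.0554%), none of them among the 9.

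LOC102410803, the phosphoserine aminotransferase, had a higher mean in the treated group, and this difference is a description because it chose the gene. Its level was 23.95 to 37.3 FPKM in the control animals, with a median of 33.4, and 32.8 to 61.3 FPKM in the treated animals, with a median of 47.1. Treated replicates 4, 5 and 6, at 53.9, 61.3 and 54.4 FPKM, stood above all others, while treated replicates 2 and 3, at 32.8 and 33.7 FPKM, lay within the control range. The groups therefore overlapped, with 4 of 6 treated animals above the highest control animal. The group means were 32.8 ± 4.72 FPKM (SD, n = 6) in the control and 46.1 ± 12.01 FPKM (SD, n = 6) in the treated group, and the difference on the log2(FPKM + 0.01) scale was 0.46 (SE 0.17), a 1.38-fold higher level. The values rested on 681 to 1627 reads per animal. In bulk tissue, more RNA per cell cannot be told apart from more cells that express the gene.

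Markers of smooth muscle and of fibroblasts had lower mean log2 levels in the treated group. Of them, 1 was called lower at the unadjusted threshold, where 0.451% of all genes tested were. The median log2 difference over all genes tested was 0.0052. The 7 tested of 10 smooth muscle markers were all lower in the treated group on the log2 scale, DES alone among them with an unadjusted p-value below 0.05 by limma (0.0271, adjusted 0.9997), and none of the 10 was at 0 in all animals. The study had already called DES and MYH11, both on this list, lower in these same animals. Their lower levels are therefore a description and not an independent result. SMTN, the most abundant of the 10, hardly differed, with means of 13.4 FPKM in the control and 13.5 FPKM in the treated group (log2 difference -0.034, SE 0.42). Summed, the 10 had 29.7 to 51.6 FPKM in the control and 16.9 to 42.3 FPKM in the treated animals. The 9 of 9 fibroblast markers were also lower, 0 of them called, and summed to between 43.1 and 278 FPKM in the control and between 19.5 and 177 FPKM in the treated animals. With the mean log2 level of these markers in the model as a covariate, the log2 difference of LOC102410803 was 0.62 (SE 0.16). Within the groups, LOC102410803 had a Pearson r of 0.612 with this score over 12 animals (exact permutation p = 0.0693, adjusted p = 0.312 over 18 relations, Spearman rho 0.685 with p = 0.0336, adjusted p = 0.271), and r was 0.492 without the 2 animals farthest from the median.

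**Figure D1:**
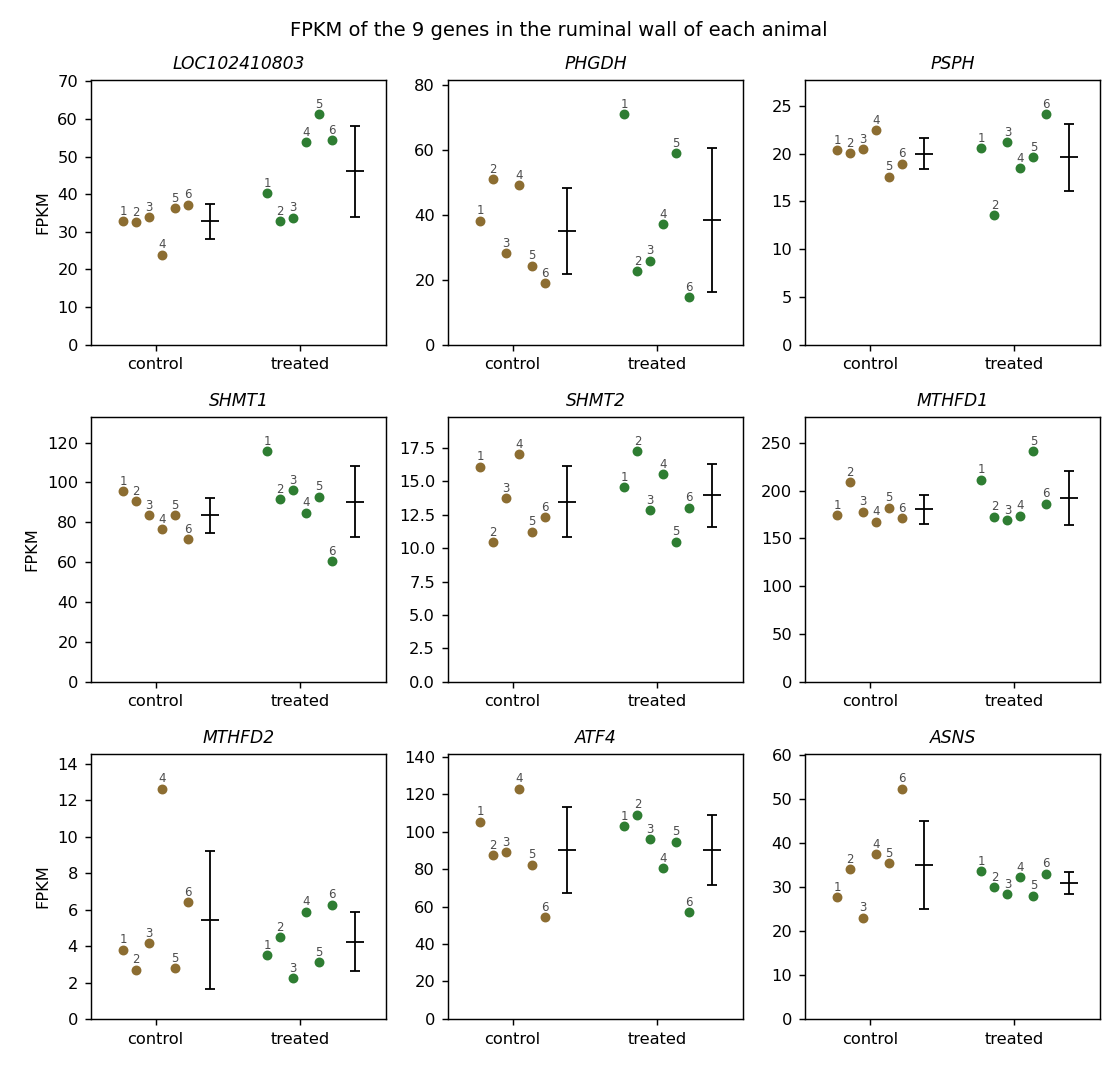
FPKM (vertical axis, starting at 0) of each of the 9 genes in the 6 control and 6 treated animals, with each point marked by its replicate number and the mean ± SD of the group to its right. LOC102410803 stands at 53.9 FPKM or above in treated replicates 4, 5 and 6, while the control and treated animals overlap in each of the 9 genes.

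PHGDH, which catalyses the first step of the pathway, varied far more between animals than between the groups. It had 19.0 to 50.9 FPKM in the control animals, with a median of 33.2, and 14.6 to 71.0 FPKM in the treated animals, with a median of 31.5. The highest values, 71.0 and 59.0 FPKM, belonged to treated replicates 1 and 5, and the lowest, 14.6 and 19.0 FPKM, to treated replicate 6 and control replicate 6. The means were 34.96 ± 13.2 FPKM (SD, n = 6) in the control and 38.4 ± 22.2 FPKM (SD, n = 6) in the treated group. The log2 difference was 0.016 (95% interval -0.77 to 0.81), with an unadjusted p-value of 0.966 and an adjusted p-value of 0.9997 by limma. The within-group SD of its log2 level, 0.73, was above that of 88.6% of the genes tested, and its counting error, 0.056 as an SD on the same log2 scale, was small beside it.

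PSPH, the phosphatase of the last step, varied little, with a within-group SD of 0.21 on the log2 scale. Its level was 17.6 to 22.5 FPKM in the control animals and 13.6 to 24.1 FPKM in the treated animals, with medians of 20.2 and 20.1. Treated replicate 2 had the lowest and treated replicate 6 the highest level, so that the control range lay within the treated range. The means were 19.996 ± 1.62 FPKM (SD, n = 6) in the control and 19.6 ± 3.51 FPKM (SD, n = 6) in the treated group. Its log2 difference was -0.045 (95% interval -0.33 to 0.24, limma unadjusted p = 0.736, adjusted p = 0.9997), and without treated replicate 2 it was 0.057.

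Within an animal, the 3 enzymes of serine synthesis did not stand in a fixed ratio. The ratio of the PHGDH level to the LOC102410803 level ran from 0.269 in 1 treated animal to 2.05 in 1 control animal, with PHGDH the higher in 4 of 12 animals. LOC102410803 was above PSPH in 12 of 12 animals, 1.07 to 3.12 times, and PHGDH was above PSPH in 11 of 12. By a two-sided exact sign-flip permutation test of the mean log2 ratio, adjusted over 6 ratios, the level of PHGDH was not shown to differ from that of LOC102410803 (adjusted p = 0.406), while both were above PSPH (adjusted p = 0.000732 and 0.00527).

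The cytosolic SHMT1 was the more abundant of the hydroxymethyltransferases in 12 of 12 animals, 4.50 to 8.88 times the level of SHMT2 (exact sign-flip permutation test, adjusted p = 0.000732). SHMT1 had 71.5 to 95.6 FPKM in the control animals, with a median of 83.6, and 60.6 to 116 FPKM in the treated animals, with a median of 92.2. Treated replicate 1 was the highest and treated replicate 6 the lowest of all 12. The means were 83.6 ± 8.83 FPKM (SD, n = 6) and 90.3 ± 17.8 FPKM (SD, n = 6), respectively. The log2 difference of 0.092 (95% interval -0.21 to 0.39) had an unadjusted p-value of 0.519 by limma.

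The mitochondrial SHMT2 had 10.5 to 17.0 FPKM in the control animals and 10.5 to 17.2 FPKM in the treated animals, with medians of 13.0 and 13.8. The groups covered the same range, with control replicate 2 and treated replicate 5 lowest and treated replicate 2 and control replicate 4 highest. Its means were 13.5 ± 2.65 FPKM (SD, n = 6) and 13.9 ± 2.36 FPKM (SD, n = 6), and the log2 difference was 0.053 (95% interval -0.28 to 0.38, limma unadjusted p = 0.734).

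MTHFD1, the cytosolic enzyme that interconverts the folate-bound carbon units, had the highest level of the 9 genes in 12 of 12 animals. Its mean FPKM was above that of 97.4% of the genes tested, which placed it at rank 332. The control animals had 168 to 209 FPKM, with a median of 176, and the treated animals 169 to 241 FPKM, with a median of 180.03. Treated replicates 5 and 1, at 241 and 211 FPKM, were the highest, and the other 4 treated animals lay within the control range. The means were 180.3 ± 14.96 FPKM (SD, n = 6) in the control and 192 ± 28.4 FPKM (SD, n = 6) in the treated group. The log2 difference was 0.085 (95% interval -0.15 to 0.32, limma unadjusted p = 0.452, adjusted p = 0.9997). It was also the least variable of the 9, with a within-group SD of 0.16 on the log2 scale that only 6.84% of the genes tested undercut.

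MTHFD2, its mitochondrial counterpart, was the lowest of the 9 in 12 of 12 animals and varied widely, with a within-group SD of 0.72 on the log2 scale. It had 2.71 to 12.7 FPKM in the control animals and 2.25 to 6.28 FPKM in the treated animals, with nearly equal medians of 3.98 and 3.99. Control replicate 4 stood apart at 12.7 FPKM, and the next highest, control replicate 6, had 6.43 FPKM. The means were 5.43 ± 3.79 FPKM (SD, n = 6) and 4.25 ± 1.6002 FPKM (SD, n = 6), and the log2 difference was -0.21 (95% interval -1.003 to 0.58, limma unadjusted p = 0.575). Without control replicate 4 it was 0.078. The level of MTHFD1 was 13.2 times that of MTHFD2 in control replicate 4, 26.6 times in control replicate 6 and 29.4 to 77.6 times in the other 10 animals.

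ATF4 had 54.4 to 123 FPKM in the control animals, with a median of 88.4, and 57.0 to 109 FPKM in the treated animals, with a median of 95.4. The lowest animal of each group was replicate 6, at 54.4 FPKM in the control and 57.0 FPKM in the treated group, and every other animal had at least 80.7 FPKM. The means of 90.4 ± 23.1 FPKM (SD, n = 6) and 90.1 ± 18.8 FPKM (SD, n = 6) differed by a log2 of 0.0085 (95% interval -0.41 to 0.43, limma unadjusted p = 0.966).

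ASNS, which makes asparagine from aspartate and glutamine, had 23.0 to 52.3 FPKM in the control animals, with a median of 34.7, and 28.0 to 33.6 FPKM in the treated animals, with a median of 31.1. All 6 treated animals lay within the control range and below the control median, and control replicate 6 was the highest. The means were 34.97 ± 10.1 FPKM (SD, n = 6) and 30.8 ± 2.44 FPKM (SD, n = 6), and the log2 difference was -0.14 (95% interval -0.49 to 0.21, limma unadjusted p = 0.417, adjusted p = 0.9997). Without control replicate 6 the log2 difference was -0.011.

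By limma, 0 of the 8 partner genes had an unadjusted p-value below 0.05, where 1.23% of all genes tested did, and voom on the reads also called 0. Of all 9 genes, 6 had a higher mean log2 level in the treated group, LOC102410803 among them, and 3 a lower one. The median absolute log2 difference was 0.085 for the 9 genes, LOC102410803 included, and 0.095 over all genes tested. For the 8 partner genes alone the median log2 difference was 0.012, against 0.0052 over all genes tested. On the log2 scale, the intervals were widest for PHGDH and MTHFD2, the most variable of the 9.

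**Figure D2:**
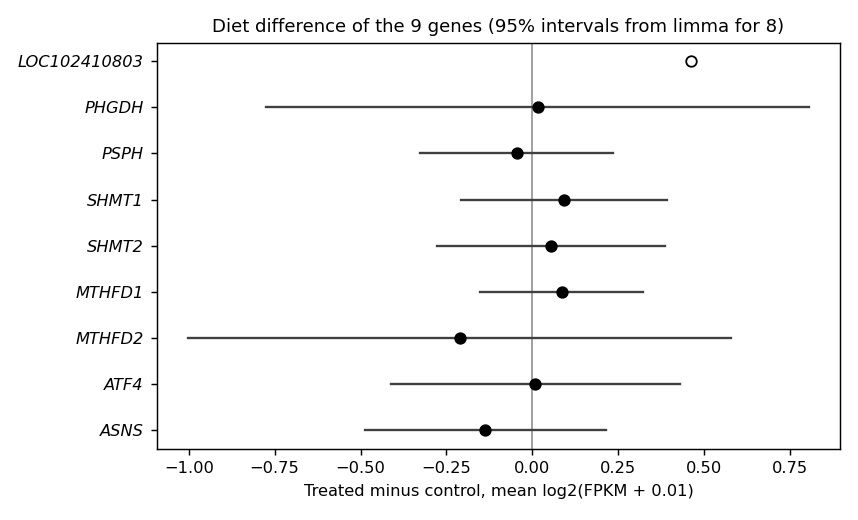
Difference between the treated and the control group in mean log2(FPKM + 0.01) for the 9 genes (horizontal axis), with 95% intervals from limma for 8 of them. The open point is LOC102410803, which was chosen by this difference and is drawn with no interval, and the intervals of the 8 other genes (filled points) all include 0.

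Ordered by mean log2 level over the 12 animals, the genes ran from MTHFD1 over ATF4, SHMT1, LOC102410803, PHGDH, ASNS, PSPH and SHMT2 to MTHFD2. Of the 8 pairs of neighbours in this order, 5 differed beyond the spread between animals by the two-sided exact sign-flip permutation test. MTHFD1 was 2.11 times ATF4, SHMT1 was 2.25 times LOC102410803, ASNS was 1.64 times PSPH and SHMT2 was 3.14 times MTHFD2, each in 12 of 12 animals (exact p = 0.000488, the smallest the test can give, adjusted p = 0.000977). PSPH was 1.45 times SHMT2 in 11 of 12 animals (exact permutation adjusted p = 0.00313). ATF4 and SHMT1 were not separated (1.02 times, higher in 5 of 12 animals, adjusted p = 0.785 by the exact test), and neither were LOC102410803 and PHGDH (adjusted p = 0.541 by the exact test) or PHGDH and ASNS (adjusted p = 0.891 by the exact test), while LOC102410803 and ASNS, not neighbours in this order, were not compared over the 12 animals. In the control animals alone LOC102410803 stood below ASNS and PHGDH in the order, and in the treated animals alone above both. The neighbours that were not separated exchanged places between these orders.

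**Figure D3:**
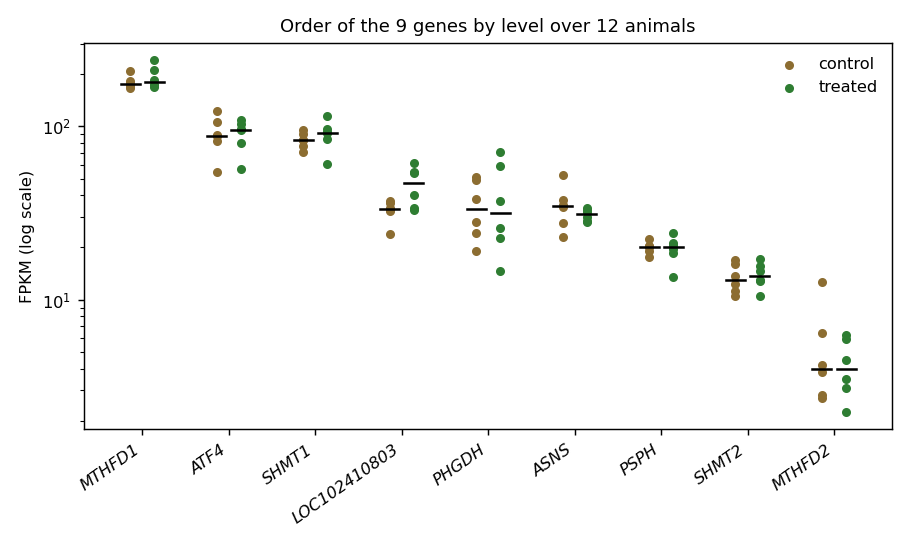
FPKM on a log scale (vertical axis) of the 9 genes in the 6 control and 6 treated animals, ordered by their mean log2 level over all 12, with a bar at the median of each group. The levels fall from MTHFD1, at 168 to 241 FPKM, to MTHFD2, at 2.25 to 12.7 FPKM.

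Whether the genes varied together from animal to animal was examined on the deviations of the log2 levels from the group means, which do not hold the diet difference. Of 36 pairs, 16 had a positive and 20 a negative Pearson r, with a median of -0.054. By exact permutation within the groups, 6 pairs reached an unadjusted p-value of r below 0.05, and after adjustment over the 36 pairs 0 remained below it for r and 0 for rho. Between the enzymes of serine synthesis no relation was shown. LOC102410803 had an r of -0.075 with PHGDH and of 0.187 with PSPH, and PHGDH had an r of 0.13 with PSPH (rho -0.14, -0.056 and 0.189, adjusted p = 0.924 each for r by exact permutation).

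PHGDH, SHMT1 and ATF4 formed the group with the highest values. The r was 0.712 between PHGDH and SHMT1 (rho 0.664, exact permutation p = 0.0184 and 0.0288), 0.688 between SHMT1 and ATF4 (rho 0.517, p = 0.0167 and 0.104 by permutation) and 0.645 between PHGDH and ATF4 (rho 0.462, p = 0.0229 and 0.145 by permutation). The adjusted permutation p of r was 0.150 for each of them. In each of the 3 genes, control replicate 6 and treated replicate 6 were the lowest of the 12 animals. Without the 2 animals farthest from the median of the first gene, treated replicates 1 and 6, the r fell to 0.322, 0.497 and 0.484, respectively, so that the relations rested in part on these animals.

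The most negative r of LOC102410803 was with ATF4, at -0.63 with a rho of -0.76 (exact permutation p = 0.0248 and 0.00378, adjusted p = 0.150 and 0.136). Without treated replicates 5 and 6 the r was -0.72. The next was with SHMT2, at -0.57 (rho -0.55, exact permutation p = 0.0579 and 0.0666, adjusted p = 0.265 and 0.342), which became -0.36 without the same animals. SHMT2 and MTHFD1 had an r of -0.67 (rho -0.60, exact permutation p = 0.0173 and 0.0373, adjusted p = 0.150 and 0.335), and -0.51 without control replicate 2 and treated replicate 2. SHMT1 and MTHFD2 had an r of -0.58 (rho -0.71, exact permutation p = 0.0251 and 0.0181, adjusted p = 0.150 and 0.327), and -0.71 without treated replicates 1 and 6.

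The mean of the epithelial markers moved with some of these genes. The mean log2 level of 11 epithelial markers was lowest in control replicate 6 and treated replicate 6, and SHMT1 had an r of 0.849 with it (exact permutation p = 0.00179, adjusted p = 0.0323 over 18 relations, rho 0.790 with an adjusted p = 0.112, r = 0.755 without the 2 animals farthest from the median). PHGDH and ATF4 had an r of 0.629 and 0.649 with it (adjusted p = 0.241 each by exact permutation). The 11 markers did not all follow their mean. EPCAM and PERP were highest in treated replicate 6, and DSG3 was highest in control replicate 6. With PHGDH, r was 0.82 for KRT5 and 0.73 for TP63, but -0.45 for EPCAM and -0.40 for DSG3. With the mean of the 11 markers taken out, the r was 0.434 between PHGDH and SHMT1 and 0.340 between SHMT1 and ATF4. It was 0.401 between PHGDH and ATF4. Of the negative relations, it was -0.59 between LOC102410803 and ATF4 and -0.72 between SHMT2 and MTHFD1. Between SHMT1 and MTHFD2 it was -0.30, against -0.58 with the mean left in.

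**Figure D4:**
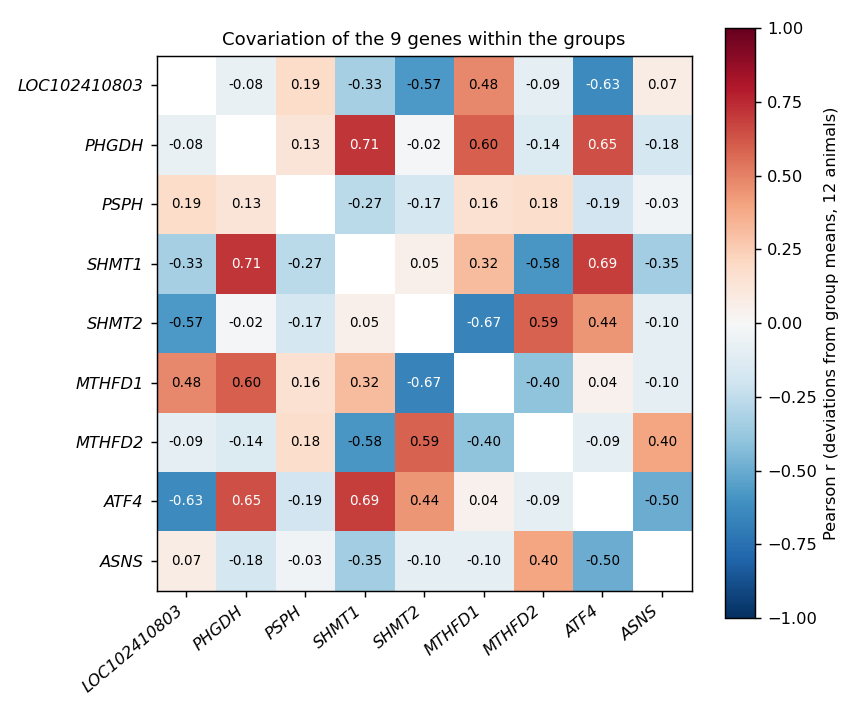
Pearson r between the 9 genes over the 12 animals, from deviations of log2(FPKM + 0.01) from the group means (red positive, blue negative). PHGDH, SHMT1 and ATF4 have the highest positive values, up to 0.71, and 0 of the 36 pairs had an adjusted p-value below 0.05.

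Of all 12639 genes tested, the 5 whose deviations were most like those of LOC102410803 were WLS (r = 0.876), TIMM17B (r = 0.853), SLC24A3 (r = 0.850), LOC102407803 (r = 0.849) and PPP2R3C (r = 0.848), each over 12 animals. These r values are the highest of a large number and are given as a description. WLS, a carrier of Wnt proteins, had 28.1 ± 1.88 FPKM (SD, n = 6) in the control and 29.3 ± 7.496 FPKM (SD, n = 6) in the treated group. TIMM17B, a subunit of the mitochondrial import machinery, had 33.4 ± 3.83 FPKM and 31.02 ± 4.55 FPKM (SD, n = 6 each). Among the 12638 genes ranked by their r with LOC102410803, MTHFD1 stood at 886, PSPH at 3466, PHGDH at 6321 and ATF4 at 12404.

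Around the 9 genes, 102 further genes of the same pathways were listed, of which 5 had no row of that name, 4 were at 0 in every animal, 13 were below the read limit and 80 were tested. By limma, 0 of the 80 were called higher and 1 lower in the treated group at an unadjusted p-value below 0.05, where 0.783% and 0.451% of all genes were, and none had an adjusted p-value below 0.05. Of the 80, 29 had a higher and 51 a lower mean log2 level, with a median log2 difference of -0.044 against 0.0052 over all genes tested.

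The gene called lower was WARS, the cytosolic tryptophanyl-tRNA synthetase. It had 13.9 to 17.8 FPKM in the control animals and 10.4 to 14.8 FPKM in the treated animals. The groups overlapped, and the means were 15.7 ± 1.79 FPKM (SD, n = 6) and 12.8 ± 1.53 FPKM (SD, n = 6). The log2 difference was -0.30 (SE 0.12, limma unadjusted p = 0.0238, adjusted p = 0.9997). Of the 13 aminoacyl-tRNA synthetases tested, which charge tRNAs and of which many are known targets of ATF4, 10 had a lower and 3 a higher mean log2 level, with a median log2 difference of -0.053. The most abundant were TARS with a log2 difference of -0.12, SARS with 0.021 and EPRS with -0.11, none of them called. WARS was not called without control replicate 1, 2 or 4, each left out in turn.

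Of 19 genes of the folate cycle and folate handling, 12 were tested and 0 were called, with 6 higher and 6 lower and a median log2 difference of 0.0032. TYMS, which makes thymidylate with a folate-bound carbon, had the highest level of them at 30.5 ± 6.31 FPKM (SD, n = 6) in the control and 32.5 ± 7.92 FPKM (SD, n = 6) in the treated group. GART, of purine synthesis, had a mean of 30.1 FPKM and FPGS, which adds glutamates to folate, a mean of 18.9 FPKM over the 12 animals. ALDH1L1, which releases the carbon of formyl-tetrahydrofolate, and FTCD, of histidine breakdown, were listed at 0 in every animal.

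The list of the methionine cycle held the most abundant of the listed genes, AHCYL2, an AHCY-like gene whose part in the cycle was not examined. AHCYL2 had 539 ± 75.5 FPKM (SD, n = 6) in the control and 557 ± 59.6 FPKM (SD, n = 6) in the treated group, and AHCY, which splits S-adenosylhomocysteine, 399.7 ± 77.2 and 414 ± 54.2 FPKM (SD, n = 6 each). MAT2A, which makes S-adenosylmethionine, had a mean of 86.7 FPKM. Of the 8 genes tested of 11, 0 were called, with 5 higher and 3 lower and a median log2 difference of 0.057. GLDC, the decarboxylase of the glycine cleavage system, was below the read limit, and 0 of the 4 tested genes of that list of 8 were called. The most abundant of these were DLD, a subunit that other dehydrogenase complexes share, at 65.6 FPKM, ALDH7A1 at 16.4 FPKM and GCSH at 13.2 FPKM.

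Of 12 genes listed for the use of serine, not all of them enzymes, 10 were tested and 0 called. Of these, 1 was higher and 9 were lower, with a median log2 difference of -0.063. The most abundant were SERINC1 at 68.0 FPKM, SPTLC1, a subunit of the enzyme that starts sphingolipid synthesis from serine, at 50.6 FPKM, and PTDSS1, which makes phosphatidylserine, at 33.1 FPKM over the 12 animals. Of 12 transporters of serine and glycine, 8 were tested and 0 called, with 4 higher and 4 lower. SLC38A2, a transporter of small neutral amino acids, led them with 155 ± 31.9 FPKM (SD, n = 6) in the control and 140.3 ± 22.0 FPKM (SD, n = 6) in the treated group, ahead of SLC1A5 at 17.7 FPKM and SLC1A4 at 12.7 FPKM over the 12 animals.

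Upstream of ATF4, 7 of 7 genes for the kinases, subunit and phosphatase partners of the initiation factor eIF2 were tested and 0 were called, with 2 higher and 5 lower. EIF2S1, the phosphorylated subunit itself, had the highest mean at 58.7 FPKM, PPP1R15B had 30.8 FPKM and EIF2AK2 14.02 FPKM over the 12 animals. Of 20 known targets of ATF4 besides ASNS and the serine enzymes, 18 were tested and 0 called, with 6 higher and 12 lower and a median log2 difference of -0.085. GPT2, an alanine aminotransferase of mitochondria, was the most abundant with 47.7 ± 4.99 FPKM (SD, n = 6) in the control and 40.9 ± 9.22 FPKM (SD, n = 6) in the treated group, a log2 difference of -0.24 (SE 0.14, limma unadjusted p = 0.105). ALDH18A1, of proline synthesis, had a log2 difference of -0.088, and SLC3A2, the heavy chain of amino acid exchangers, of -0.089.

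**Figure D5:**
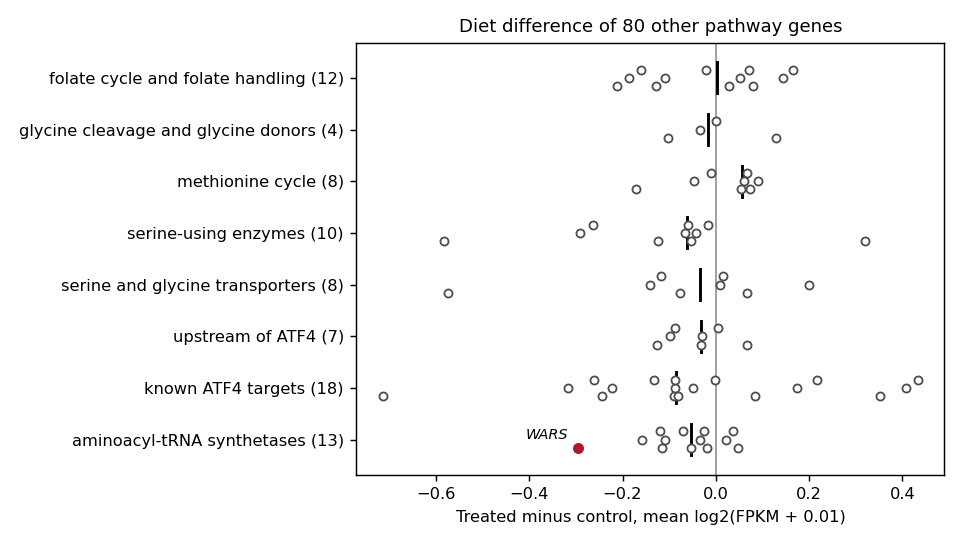
Difference between the treated and the control group in mean log2(FPKM + 0.01) (horizontal axis) for the 80 tested genes of 8 lists, with the number of genes of each list in brackets, 1 point per gene and a bar at the median of each list. The filled point is WARS at -0.30, the single gene of the 80 with an unadjusted p-value below 0.05.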

How the data were processed

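Total RNA of the ruminal wall of 12 animals was sequenced as stranded paired ends of 150 bp from samples with an RNA integrity number above 7. Per the authors' methods, Trimmomatic 0.39 trimmed the reads, STAR 2.5.2b placed them on UOA_WB_1, and featureCounts 2.0.0 counted the fragments of each gene with regard to strand. The authors deposited FPKM, and the tool and gene lengths behind them are not given in the sources used here. In the deposited table, 4 columns without a sample description were not used. The whole number of reads behind each FPKM was worked out for 22972 of 22972 genes above 0 and served for the read limit, the counting error and voom. The number of counted fragments limits the precision, and p-values measure the spread between animals.

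Groups came from the sample labels. The members and gene lists were chosen with earlier results of these data known. The genes named are the 9 members, the called genes and the 3 most abundant of each list, and the 5 genes most like LOC102410803. KRT5, TP63, EPCAM, PERP, DSG3, DES, MYH11, SMTN, PYCR1 and the genes listed at 0 or below the read limit were named after their values were seen. Genes with at least 42 reads, at the mean depth, in at least 1 animal were tested with limma 3.58.1 in R 4.3.3 (lmFit, eBayes with trend) on log2(FPKM + 0.01), where a pseudocount understates changes of low genes, and the p-values were adjusted over all tested genes (Benjamini-Hochberg). A gene was called at an unadjusted p-value below 0.05, the threshold of the study. LOC102410803 was chosen by its diet difference and was given no p-value. Levels were compared by exact sign-flip tests over 4096 sign patterns, and pairs of genes by exact permutation over 518400 arrangements within the groups, both two-sided, in numpy 2.4.6 and scipy 1.17.1 under Python 3.11.15. pandas 2.3.3 read the tables, and matplotlib 3.10.9 drew the figures. The scores of epithelial and of muscle and fibroblast markers are means of log2 levels after centring each gene. The methods were tested on simulated data. Gene names other than those of the table were taken from RefSeq (NDDB_SH_1) by gene identifier, which matched for all 9 members.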

Additional observations from a re-analysis of the deposited data

Results flagged for a closer look

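In each of the 18 sets of 6 animals (9 genes in both groups) the highest and the lowest animal were compared with the nearest of the others, and 3 sets had an animal that stood apart by Dixon's criterion (a gap above 0.625 of the range). Chance flags about 1 in 20 such sets. Control replicate 4 was low for LOC102410803, at 23.95 FPKM, and high for MTHFD2, at 12.7 FPKM. Control replicate 2 was high for MTHFD1, at 209 FPKM. Without control replicate 4, the log2 difference of LOC102410803 was 0.37 (SE 0.17). Control replicate 4 was the highest of the 12 animals for 12 of the 80 further pathway genes tested. Of the genes named, these were GPT2, PTDSS1 and GCSH. It was the highest for 7.16% of all 12639 genes tested. This was not particular to it, since control replicate 6 was the highest for more of the 80 and for 16.6% of all genes tested.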

How the results depend on the processing

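The log2 difference of LOC102410803 was 0.45 to 0.62 in the alternatives with all animals and 0.37 to 0.55 when 1 animal was left out, and since it chose the gene its sign there is no evidence of stability. No partner gene was called in any of the 21. The sign of several small differences was not stable, while MTHFD1 and ASNS kept theirs in all 21. The size of these 2 differences still depended on single animals. For ASNS it was -0.011 without control replicate 6, and for MTHFD1 it was 0.018 without treated replicate 5. With the muscle and fibroblast score as a covariate, the log2 differences of PHGDH, SHMT1 and ATF4 were -0.17, -0.011 and -0.12, and with the epithelial score those of PHGDH and ATF4 were -0.14 and -0.075. When 1 animal was left out they ran from -0.20 to 0.25 for PHGDH, from -0.13 to 0.13 for ATF4, from -0.11 to 0.057 for PSPH, from -0.015 to 0.13 for SHMT2 and from -0.37 to 0.078 for MTHFD2.

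Over all genes, 562 of 22972 had an unadjusted p-value below 0.05 without the filter and 301 of 16450 when 6 or more animals had to reach 0.1 FPKM, where more genes were tested, 353 with the muscle and fibroblast score and 315 with the epithelial score, 0 of them adjusted. The balance of higher to lower calls, 99 to 57 with all animals, was 271 to 291 without the filter, 79 to 101 without treated replicate 4 and 95 to 100 without treated replicate 5. With 1 animal left out there were 142 to 328, the most without treated replicate 6, and the cause was not tested. Of the further pathway genes, 2 were called with the muscle and fibroblast score (GPT2 and WARS), 3 with the epithelial score (GPT2, PYCR1 and WARS) and 0 to 2 with 1 animal left out. Of the pairs, 0 to 1 had an adjusted p-value below 0.05 with 1 animal left out, the 1 being SHMT1 and ATF4 without control replicate 4 (r = 0.873). Of the neighbours in level, 5 differed in every fit without 1 animal, and 0 in the control or treated animals alone, where 6 animals allow no exact p below 0.0313.

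The labels number the animals of both groups, but the numbers stand for different animals. The sample titles number control replicate 6 and every treated animal otherwise, so a shared number is not a pairing given by the labels. Same-numbered animals had correlations of -0.0083 to 0.413, and 3 of 6 control animals correlated best with their own number. With the number as a replicate block, 320 genes had an unadjusted p-value below 0.05, and 0 partner genes, 1 further pathway gene (WARS) and 0 pairs were called. The pairs then rested on 6 differences, where 1 pair alone cannot reach an adjusted p-value below 0.05, so no conclusion is drawn from their 0. With the replicate block, the r of ATF4 was -0.21 with SHMT1 and 0.043 with PHGDH, against 0.688 and 0.645 without it. Pseudocounts of 0.1 and 1, median ratio scaling and voom left these numbers of called partner and further pathway genes as they were, and a pseudocount of 1 and median ratio scaling that of the pairs.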
